A study of Mus musculus with 2 samples.

Results

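The zinc finger genes Zfp700 to Zfp999 of the mouse were examined in megakaryocyte progenitors, the blood precursors that give rise to platelet-forming megakaryocytes. They were chosen by name alone, as the protein-coding genes of GENCODE M21 whose symbol is Zfp followed by 3 digits, the leading digit being 7, 8 or 9. This gave 128 of 21938 protein-coding genes, spread over 17 chromosomes. The assay was ATAC-seq, which reads accessible chromatin through adapters that a transposase cuts into it. There was 1 group of primary cells, taken from adult C57BL/6J mice, all male and 5 to 6 weeks old, with 2 biological replicates of 50000 cells each. Both replicates carry the same donor record in the labels. A code given beside the cell name, CFU-M, was left as it stands. With no second condition in the series, nothing could be compared between treatments or genotypes. The values below describe 2 libraries, and the spread between them is the only replicate error. An open region seen in few cells and a weaker region seen in all cells cannot be told apart in such bulk libraries.

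Proteins of this kind carry arrays of C2H2 zinc fingers, short loops held by a zinc ion that read DNA letters. Many also carry a KRAB box, a short domain that binds the corepressor TRIM28. TRIM28 brings the histone methyltransferase SETDB1 and HP1 proteins to the bound site, and many KRAB zinc finger proteins silence endogenous retroviruses in this way. The genes multiplied by tandem duplication and lie in arrays of near copies. In this set 103 of 128 proteins matched a KRAB pattern and 25 did not. The median number of fingers matched was 11, the highest 23, and 8 proteins matched none.

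The promoter sequences show how alike some of these genes are and what many of them share. RefSeq promoters on GRCm38.p6 (the assembly of mm10) were listed for 109 of the 128 genes, and 100 of these start within 1 kb of the gene's annotated 5′ end. Not listed there were Zfp703, Zfp704, Zfp706, Zfp707, Zfp711, Zfp750, Zfp831, Zfp865, Zfp870, Zfp930, Zfp934, Zfp960, Zfp969, Zfp978, Zfp986, Zfp989, Zfp990, Zfp991 and Zfp992. The stretches printed lie upstream of the RefSeq start, are given 5′ to 3′ on the gene's strand, and hold at most 120 bases that fall in no annotated exon. Capitals mark the pentamer CCAAT (or ATTGG, its reverse complement), the core bound by the factor NF-Y, and the word CTGCCAGTCAGA. Zfp799 (chr17:32830262-32830381, minus strand) is shown as the gene with the strongest promoter region. Zfp932 (chr5:109996407-109996520, plus strand) is a known repressor of endogenous retroviruses with a strong promoter region. Zfp976 (chr7:42642605-42642724, minus strand) had a region and its neighbour Zfp977 (chr7:42592548-42592665, minus strand) had none. Zfp971 (chr2:178023164-178023283, plus strand) had a weak region, while Zfp965 (chr2:175469905-175469984, plus strand) and Zfp966 (chr2:175931101-175931220, minus strand) had none.
Zfp799: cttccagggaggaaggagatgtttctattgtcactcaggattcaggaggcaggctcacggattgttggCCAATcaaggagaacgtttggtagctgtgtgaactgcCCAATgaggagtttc
Zfp932: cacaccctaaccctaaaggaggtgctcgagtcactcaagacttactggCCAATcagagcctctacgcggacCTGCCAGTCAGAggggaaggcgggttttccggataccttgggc
Zfp976: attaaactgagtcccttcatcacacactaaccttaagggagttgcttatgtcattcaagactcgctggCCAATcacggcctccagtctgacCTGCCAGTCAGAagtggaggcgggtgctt
Zfp977: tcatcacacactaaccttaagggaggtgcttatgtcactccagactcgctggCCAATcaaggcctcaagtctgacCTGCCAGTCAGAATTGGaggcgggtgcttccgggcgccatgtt
Zfp971: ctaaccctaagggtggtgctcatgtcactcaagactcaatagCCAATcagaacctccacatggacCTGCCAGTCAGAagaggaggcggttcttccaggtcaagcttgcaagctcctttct
Zfp965: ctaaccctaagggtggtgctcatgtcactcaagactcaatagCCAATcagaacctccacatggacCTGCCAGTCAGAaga
Zfp966: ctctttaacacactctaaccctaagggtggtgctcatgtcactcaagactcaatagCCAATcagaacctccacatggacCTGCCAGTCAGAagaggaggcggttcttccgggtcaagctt
The 300-base promoter windows (250 bases before the start to 50 after) of Zfp971 and Zfp965 were 97.0% identical, and those of Zfp976 and Zfp977 80.8%. The windows of Zfp966 and Zfp967 were identical at every base.

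CCAAT on either strand lay in 66 of the 100 member windows (66.0%) and in 38.9% of the 14267 windows of all genes measured the same way. It lay in 48 of 78 windows of members with a promoter region and in 18 of 22 windows of members without. Among all genes it lay in 39.15% of open and 38.29% of closed windows. The closed member windows with it include those of Zfp931, Zfp965, Zfp966, Zfp967, Zfp968, Zfp970, Zfp972 and Zfp973 in the chromosome 2 array. Others are those of Zfp979, Zfp980, Zfp982, Zfp985, Zfp987 and Zfp988, which lie together in another array. Windows within these arrays resemble each other, so the member counts are not of independent sequences. The word CTGCCAGTCAGA was found by counting every word of 12 bases on both strands, and it is the word present in the most member windows. It lay in 16 member windows and in 34 of all 14267, the members included. No other gene named Zfp with a number held it. The other carriers were Klf9, Senp2 and genes with Gm or Rik symbols, such as Gm14288 and 2210418O10Rik. The word is therefore not particular to the members. Of the 16, 9 are in the chromosome 2 array (Zfp931, Zfp965, Zfp966, Zfp967, Zfp968, Zfp970, Zfp971, Zfp972 and Zfp973). The other 7 lie on chromosomes 5, 7, 10 and 19 (Zfp873, Zfp932, Zfp950, Zfp951, Zfp975, Zfp976 and Zfp977). All of these 7 but Zfp977 had a promoter region, whereas of the 9 on chromosome 2 only Zfp971 had one. The word is thus carried by promoters with and without a region, and its match is a description of letters, not of binding.

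2 divergent gene pairs on chromosome 17 show another kind of promoter. Zfp942 and Zfp943 are transcribed away from each other from 1 region, as are Zfp944 and Zfp758. The stretches between their starts are printed on the strand of Zfp943 (chr17:21962465-21962551) and Zfp758 (chr17:22361401-22361452), with capitals for the E-box CACGTG, a core bound by USF and MYC, and for GGGCGG, bound by SP and KLF factors, the latter on either strand.
Zfp943: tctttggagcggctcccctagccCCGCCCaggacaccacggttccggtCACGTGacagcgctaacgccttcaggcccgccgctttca
Zfp758: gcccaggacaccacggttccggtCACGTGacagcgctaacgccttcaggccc
The windows of Zfp943 and Zfp758 were 94.8% identical, the highest value among 78 pairs in that cluster, whose median was 46.9%. The region between Zfp942 and Zfp943 had a signal of 12.24, with 11.89 in replicate 1 and 12.28 in replicate 2. That between Zfp944 and Zfp758 had 13.68, with 12.06 and 14.11. These 2 regions differed in the conservative list by less than the replicates did at the second pair. Another pair, Zfp934 and Zfp935 on chromosome 13, also had its strongest region in common, at 11.05 (9.49 and 8.87). With the 6 genes of these pairs, 11 of the 94 open members shared their strongest region with another gene. The same share over all open genes was not counted, so whether this is many or few cannot be said.

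The series lists open regions made from each library alone and from both. The conservative list thresholded on the irreproducible discovery rate held 80938 regions, and the replicates' own lists 61735 and 60098. A signal is the authors' own value for a peak, with no scaling between libraries given, and read depth is unknown. A gene is called open here when the conservative list had a region with a summit within 1 kb of any of its start sites. The label of replicate 1 names 2 sequencing instruments. Of 11 megakaryocyte markers 8 were open, among them Itga2b at 6.04, Pf4 at 5.96 and Gata1 at 5.89. Vwf, Selp and Fli1 had none at their start sites and 14, 13 and 21 distal regions. None of 5 T cell markers was open, against 2 of 5 B cell markers (Pax5 and Ebf1), 3 of 5 macrophage and granulocyte markers (Adgre1, Mpo and Elane) and 5 of 5 erythroid markers. What other cells contributed to the values below was not tested.

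Most of the zinc finger genes had an open promoter, and their regions were strong. Of the 128 genes 94 were open (73.4%), where 60.2% of all protein-coding genes were. Replicate 1's own list had a promoter region for 92 (71.9%, against 57.1% of all genes) and that of replicate 2 for 93 (72.7%, against 56.4%). Their median signal was 14.29 in the conservative list, against 11.25 for all open genes. In the replicates' own lists the medians were 12.89 and 13.45, against 10.57 and 11.31. In the conservative list 71 of the 94 (75.5%) lay above the median of all open genes, and 23 (24.5%) lay above 16.67, the level that 10% of all open genes exceed. The regions themselves had a summit near a start site. In each gene's strongest region, the summit closest to a start site lay a median of 46.5 bp from it. This closest summit lay within 100 bp in 77 of 94 genes and upstream in 71. Most of these regions held several summits, which shortens such a distance, and the distances over all genes are not given here. The median width of the members' promoter regions was 829.5 bp, against 773 bp for all promoter regions. 81 of the 94 had 1 promoter region and 13 had more, the most being 4 at Zfp710.

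**Figure D1:**
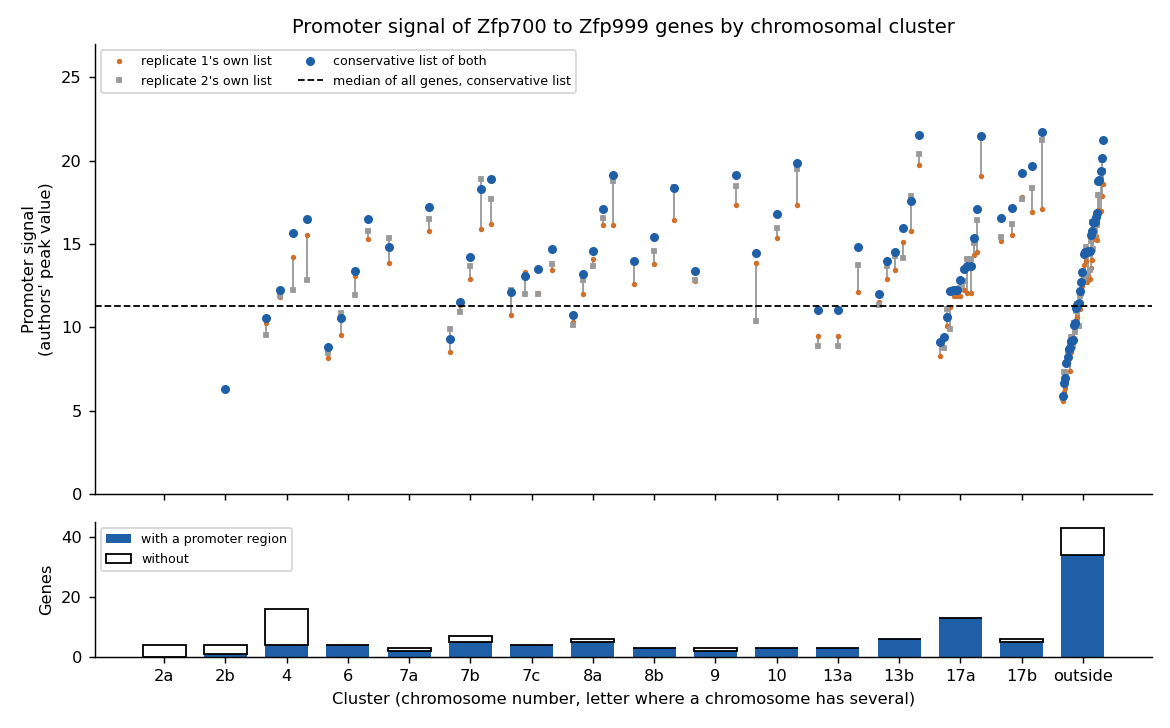
Promoter signal of each open gene (top; authors' value per peak, no unit given) by chromosomal cluster, from the conservative list (blue) and from the own lists of replicate 1 (orange) and replicate 2 (grey), joined by a line; the dashed line is the all-gene median of 11.25. The lower bars count genes with and without a promoter region: 0 of 4 in cluster 2a, 1 of 4 in 2b and 4 of 16 in 4, but 13 of 13 in 17a.

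The strongest of these promoters stood high among all genes, whose values reached 27.58. Zfp799 on chromosome 17 had 21.71 in the conservative list, with 17.09 in replicate 1 and 21.24 in replicate 2, and ranked 76 among all open genes. Zfp738 on chromosome 13 had 21.51, with 19.76 and 20.39, and ranked 84. Zfp994 on chromosome 17 had 21.46, with 19.06 and 21.45. Replicate 2 was the higher for each of these 3, by the widest margin at Zfp799, where the mean of the replicates was 19.16 ± 2.93 (SD, n = 2). Zfp940 on chromosome 7 followed at 21.21 (18.61 and 19.36). Zfp846, Zfp938, Zfp952, Zfp950, Zfp763, Zfp810, Zfp964 and Zfp976 lay between 20.13 and 18.88. In the replicates' own lists these 8 ranged from 16.14 to 20.01, and their order was not the same in both. All 12 were regions of ordinary width, from 723 bp at Zfp940 to 994 bp at Zfp994, and 11 of the 12 matched a KRAB pattern, Zfp799 being the exception.

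The weakest open promoters belonged mainly to genes without a KRAB pattern. Zfp839 had 5.90 in the conservative list, with 5.57 and 5.74 in the replicates. Zfp703, a transcriptional cofactor of the NET family known from breast epithelium, had 6.65 (6.12 and 7.30). Zfp710 had 6.95 (6.33 and 7.30) and Zfp704 had 7.86 (6.82 and 7.10). The values of these 4 in either replicate lay below every value of the 12 strongest. Zfp971, the KRAB gene whose promoter is shown above, had 6.26 in the conservative list and no region in the own list of either replicate. Its region was 171 bp wide.

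Beside Zfp703 and Zfp710, 10 open genes chosen for a described role had signals from 9.23 to 18.80, and Zfp750 was closed. Among the retrovirus repressors, Zfp932, which silences endogenous retroviruses, had 18.80 (17.04 in replicate 1, 17.94 in replicate 2). Zfp809, which recognises the primer binding site of murine leukaemia virus, had 13.36 (12.75 and 12.83). Zfp708, which binds a family of retroelements in the early embryo, had 11.998 (11.49 and 11.35). Zfp830, a nuclear protein tied to splicing, had 14.60 (13.10 and 14.40) and shared its region with Cct6b. Zfp706, a small protein that acts on stem cell self-renewal, had 14.51 (14.01 and 14.80). Zfp764 had 13.48 (12.03 and 12.004), Zfp827, which recruits a chromatin remodeller to telomeres, 11.44 (11.17 and 10.05), and Zfp800 10.25 (9.99 and 9.70). Zfp746, known as PARIS, a substrate of Parkin, had 10.53 (9.55 and 10.87). Zfp711, an X-linked gene whose human counterpart is tied to intellectual disability, had 9.23, a region in replicate 2 at 8.87 and none in replicate 1's own list. Zfp750, a regulator of epidermal differentiation, had no promoter region in any of the 8 lists used.

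Genes with and without the KRAB pattern differed in the share open and in signal, in opposite directions, and neither difference was tested. Of the 103 genes with a KRAB pattern 73 were open (70.9%), with a median signal of 14.53. Of the 25 without it 21 were open (84.0%), with a median of 11.44. All 24 genes of clusters 2a, 2b and 4, described next, carried the pattern, and only 5 of them were open (20.8%). The lower share of the KRAB genes therefore includes these arrays of repeated sequence. The KRAB genes had a mean of 1.55 distal regions and the others 5.24. The 23 KRAB genes outside all clusters include Zfp967 and Zfp973, closed genes of the chromosome 2 array. Of these 23, 18 were open (78.3%), with a median of 15.07 and 1.48 distal regions. Over the longest coding exon, which in these genes usually encodes the finger array, 6 of the 128 had an open region (4.69%): Zfp703, Zfp771, Zfp830, Zfp853, Zfp953 and Zfp957. Zfp703 and Zfp957 matched no finger and Zfp830 matched 1, so a region there does not mark a finger array. Of all genes 10.9% had one, though this exon had a median length of 1362 bp in the members and 339 bp in all genes.

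The arrays differed widely in how many of their genes were open. Counting 3 or more members with neighbouring 5′ ends at most 500 kb apart as a cluster, 15 clusters held 85 genes and 43 lay outside. Of the clustered genes 60 of 85 were open (70.6%) and of the others 34 of 43 (79.1%), a difference of -8.48 percentage points. The 43 include Zfp967 and Zfp973, both closed, which lie between clusters 2a and 2b in the chromosome 2 array. Without the members on chromosomes 2 and 4 the difference turned to 5.95 points in favour of the clustered genes. In clusters 2a, 2b and 4 only 5 of 24 genes were open (20.8%), against 55 of 61 (90.2%) in the other 12. Both splits were made after the open calls were seen, setting apart the clusters with few open genes. The contrasts therefore follow in part from that choice. The 13 genes of cluster 17a, spread over 1300 kb of chromosome 17, were all open, at 9.09 to 21.46. All members were open too in clusters 6, 7c, 8b, 10, 13a and 13b. In order of their strongest genes, the clusters were led by Zfp799 in 17b, Zfp738 in 13b, Zfp994 in 17a, Zfp938 at 19.86 in 10, Zfp810 at 19.17 in 9, Zfp964 at 19.16 in 8a, Zfp976 at 18.88 in 7b and Zfp961 at 18.37 in 8b. Then came Zfp773 at 17.19 in 7a, Zfp993 at 16.49 in 4, Zfp956 at 16.48 in 6, Zfp808 at 14.84 in 13a, Zfp747 at 14.68 in 7c and Zfp971 at 6.26 in 2b.

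The chromosome 2 array held almost no open chromatin. Its 10 genes from Zfp968 to Zfp931 had 1 open promoter, that of Zfp971. Zfp965, Zfp966, Zfp967, Zfp968, Zfp969, Zfp970, Zfp972 and Zfp973 had no promoter region in any of the 8 lists used and no distal region within 50 kb in the conservative list. Zfp931 had 3 distal regions and a promoter region at 5.77 in the longer list made by pseudoreplicates from both libraries. Cluster 2a, 558.7 kb long, held 1 region in all, 1.79 per Mb, where the genome held 29.7 per Mb. The sequence of the array is also repeated: 0.0% of the 50-base words across cluster 2a occur only once in the genome. For Zfp965, Zfp966, Zfp967, Zfp968, Zfp969 and Zfp973 the share of unique 50-base words in the window from 500 bases before to 500 after the 5′ end was 0.0%, and for 100-base words 0.0% as well. Closed chromatin and reads that cannot be placed cannot be told apart at these 6 promoters. How reads with several matches were handled is not given in the sources used here. At Zfp970, Zfp972 and Zfp931 the unique share of 50-base words was 23.1%, 29.3% and 17.4%, and at the open Zfp971 47.9%.

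Cluster 4, whose KRAB genes include known repressors of endogenous retroviruses, had 4 open promoters among 16 genes. Zfp993 had 16.49 (15.55 in replicate 1, 12.84 in replicate 2), Zfp991 15.66 (14.23 and 12.23), Zfp933 12.24 (11.80 and 11.85) and Zfp984 10.57 (10.23 and 9.51). All 4 lay above or near the median of all open genes. Among the 13217 open genes Zfp993 ranked 1428 and Zfp991 1961, while Zfp933 ranked 5326 and Zfp984 7481. Both open and closed genes of the cluster had repeated sequence. Zfp993 was open with 0.0% unique 50-base words and Zfp991 with 12.7%. Of their 100-base words 3.22% and 26.4% were unique. Whether the reads behind these open calls came from these promoters or from copies elsewhere cannot be told. Among the 12 closed genes the unique share ran from 8.19% to 79.7% of 50-base words and from 21.1% to 99.6% of 100-base words. The most unique were Zfp990, Zfp981, Zfp988, Zfp982 and Zfp985, with 58.9% to 79.7% and 92.8% to 99.6%. The other 7, Zfp978, Zfp979, Zfp980, Zfp986, Zfp987, Zfp989 and Zfp992, had 8.19% to 54.6% and 21.1% to 81.6%. Promoter windows could be compared for 8 of the 16 genes, not including Zfp993 and Zfp991. Leaving aside Zfp933, whose 7 pairs were 45.6% to 48.8% identical, the other 21 pairs had a median identity of 76.7%, from 58.8% to 89.5%. The median was 78.2% over 36 pairs in the chromosome 2 array and 46.9% in 17a.

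**Figure D2:**
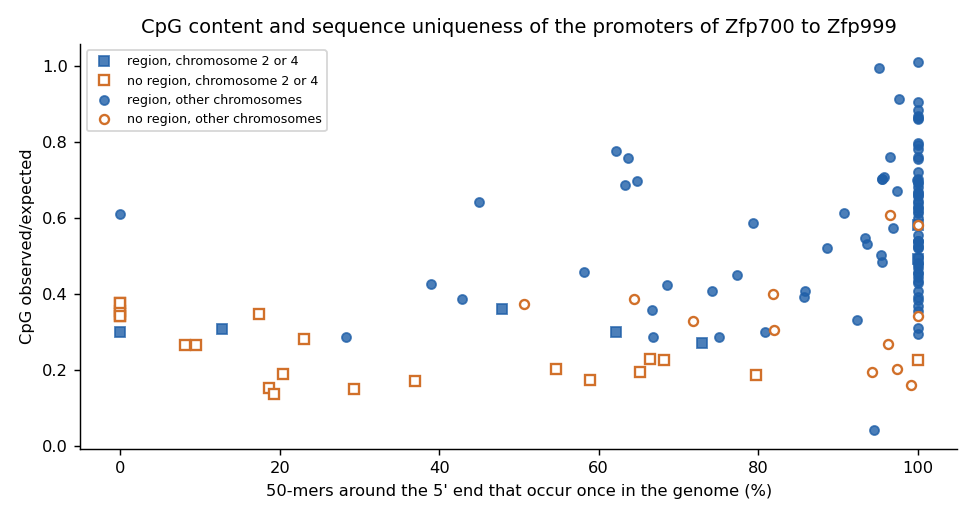
Each point is 1 of the 128 genes, placed by the share of 50-base words around its 5′ end that occur once in the genome (x, percent) and its CpG observed/expected ratio there (y, no unit); filled points had a promoter region, open points none, squares lie on chromosomes 2 and 4. Of the 76 genes with at least 90% unique words 68 are filled, and the 6 closed genes of chromosome 2 at 0.0% sit at the left.

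Over all 128 genes the closed promoters mostly had repeated sequence. Of the 34 closed genes 26 had under 90% unique 50-base words, 22 lay on chromosomes 2 and 4, and 30 carried a KRAB pattern. Among genes with at least 90% unique words 68 of 76 were open (89.5%), against 65.6% of all genes in that bin. From 75 to 90% 7 of 10 were open, and from 50 to 75% 11 of 19, against 38.7% and 27.2% of all genes. Among genes from 25 to 50% it was 5 of 7, and at 25% or less 3 of 16, against 20.2% and 8.04% of all genes. The mapping of reads was not examined, so its part in these counts was not tested beyond these values. At the 3 open genes with 25% or less, Zfp781, Zfp991 and Zfp993, reads from copies elsewhere cannot be told from their own. The 8 closed genes with at least 90% unique words are Zfp831, Zfp853, Zfp791, Zfp872, Zfp735, Zfp750, Zfp957 and Zfp811, listed after their values were seen. Of all 34, Zfp772, Zfp872, Zfp931 and Zfp960 had a region at 4.29 to 5.77 in the longer pseudoreplicated list, in which 98 of the 128 genes and 67.6% of all genes were open. None of the 34 had a region in the own list of either replicate.

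More of the CpG-rich promoters were open, but the strongest members were not the richest in CpG. All genes were cut into 4 equal classes by the ratio of observed to expected CpG in the same window around the 5′ end. Of the members 13 fell in the lowest class, 67 in the second, 36 in the third and 12 in the highest. They were open in 1 of 13, 47 of 67, 34 of 36 and 12 of 12, or 7.69%, 70.1%, 94.4% and 100%. All genes of these classes were open in 17.4%, 48.9%, 83.5% and 91.2%. In the second class, which holds most members, the difference was 21.3 percentage points. The lone open gene of the lowest class was Zfp759, at 15.97, whose region lay 6204 bp from the 5′ end at another of its start sites. The CpG ratio is that of the 5′ end, and in 6 open genes (Zfp708, Zfp738, Zfp759, Zfp800, Zfp866 and Zfp934) the strongest promoter region lay more than 1 kb away from it. The median signal of open members was 15.38 in the second class, 13.68 in the third and 9.88 in the highest, against 10.66, 11.89 and 11.19 for all genes. Across the 94 open members signal and CpG ratio had a Spearman correlation of -0.38, across the 88 whose region lay within 1 kb of the 5′ end -0.42, and across all open genes 0.03. Genes share chromosomes and ancestry and are not independent, so this is a description. Zfp746, with a ratio of 1.01, Zfp777 with 0.86 and Zfp839 with 0.87 stood at the CpG-rich, weaker end. Zfp994 with 0.42 and Zfp950 with 0.29 stood at the other. Other members went against this order. Zfp706 with a ratio of 0.89 had a signal of 14.51 and Zfp964 with 0.76 had 19.16, while Zfp710 with 0.41 had 6.95.

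**Figure D3:**
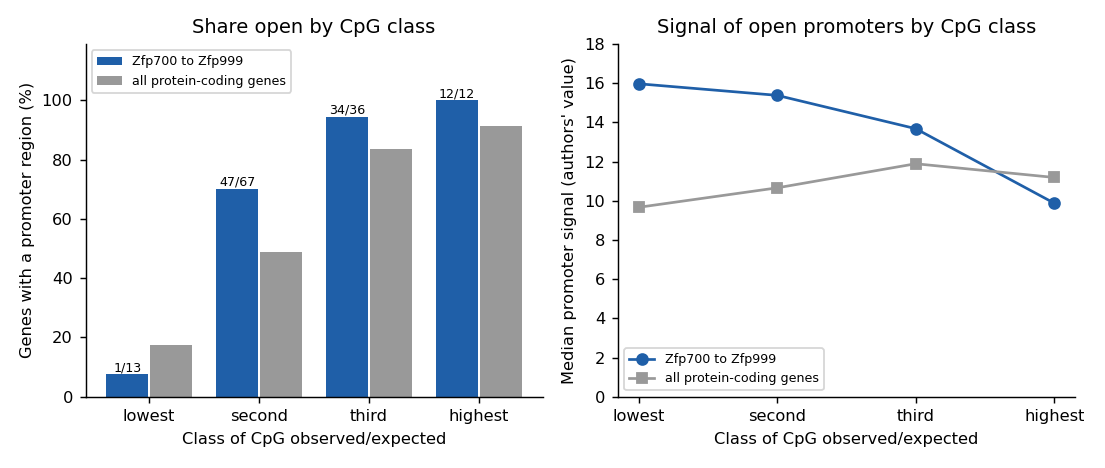
Left, percent of genes with a promoter region in each of 4 classes of CpG observed/expected, for the 128 genes (blue, counts above the bars) and all protein-coding genes (grey). Right, median promoter signal (authors' value) of the open genes of each class: it runs from 15.97, the value of 1 gene, and 15.38 down to 9.88 for the members and from 9.67 to 11.89 for all genes.

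Few distal regions accompanied these strong promoters. Within 50 kb of their 5′ ends the 128 genes had a mean of 2.27 distal regions in the conservative list, against 4.17 for all genes. In the replicates' own lists the means were 1.64 and 1.56, against 3.07 and 3.01. No distal region was found for 42 of the 128 (32.8%), where 18.1% of all genes had none. Among open genes the shares were 25.5% of members (24 of 94) and 4.74% of all genes. The members also had slightly fewer genes near them, 2.76 within 50 kb on average against 3.28 for all. The first open members in genome order without a distal region were Zfp937, Zfp951, Zfp954, Zfp773 and Zfp850, with promoter signals of 16.86, 18.84, 14.80, 17.19 and 14.53. All 5 lay above the median of all open genes. The 254 distal regions near members had a median signal of 8.20, against 8.74 for all distal regions near genes. Members with under 90% unique 50-base words had a mean of 0.83 where all such genes had 2.01, and those with at least 90% had 3.26 where all such genes had 4.49.

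**Figure D4:**
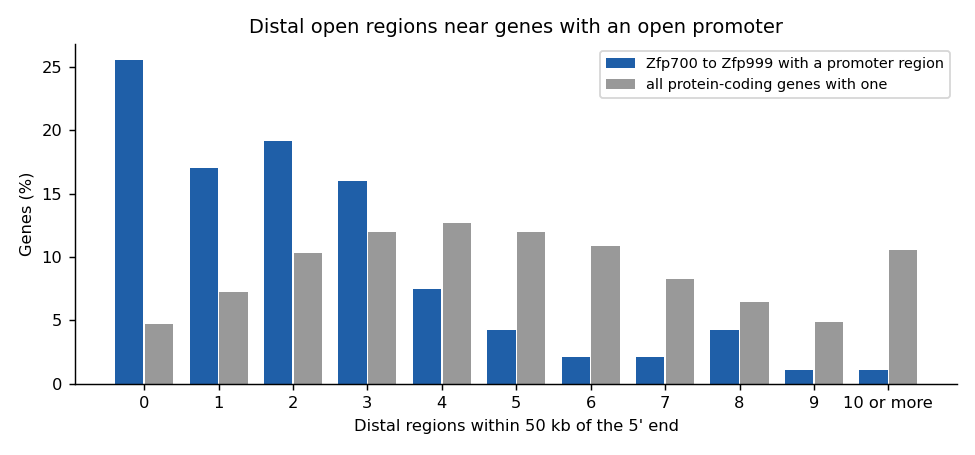
Percent of open genes (y) with 0 to 10 or more distal regions within 50 kb of the 5′ end (x), for the 94 open zinc finger genes (blue) and all open protein-coding genes (grey). The members peak at 0, with 25.5%, where all open genes have 4.74%.

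The genes with most distal regions were mostly not KRAB genes, and 4 of the first 8 were closed. Zfp704 had 14 in the conservative list, with 10 in replicate 1 and 9 in replicate 2. Zfp750 had 12 (9 and 11), Zfp831 11 (11 and 10), Zfp957 10 (7 and 6) and Zfp853 8 (5 and 6), and these 4 had no promoter region. Zfp771 had 9 (7 and 8). Zfp786 had 8 (4 and 5) and Zfp715 had 8 (7 and 6), the only KRAB genes of these 8. Zfp819 and Zfp839 also had 8. Distal regions are assigned by distance, so they may lie nearer to other genes.

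The replicates ranked the zinc finger promoters alike. Across the 92 genes with a promoter region in both own lists, Spearman's correlation of the signals was 0.945 and Pearson's of their log2 values 0.95, a description across genes. Across 12079 genes Spearman's value was 0.955. Replicate 2 exceeded replicate 1 by a median of 0.07 on the log2 scale at the members and by 0.09 at all genes, with SDs of 0.125 and 0.136, and 70 of 92 members were higher in replicate 2. The ratios farthest from the all-gene median belonged to Zfp781, Zfp993, Zfp991, Zfp946 and Zfp771. Zfp781 had 13.86 in replicate 1 and 10.39 in replicate 2, a log2 ratio 0.51 below that median. Zfp993 lay 0.37, Zfp991 0.31, Zfp946 0.28 and Zfp771 0.24 below it, so all 5 were relatively higher in replicate 1. The first 3 are the 3 open genes with at most 25% unique 50-base words (0.0% at Zfp781 and Zfp993, 12.7% at Zfp991). Zfp946 and Zfp771 had 100%. Whether sequence uniqueness bears on the difference between libraries was not tested.

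**Figure D5:**
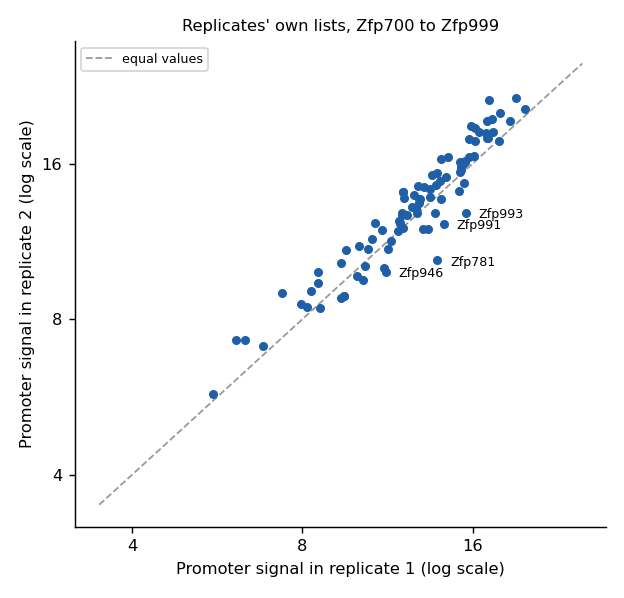
Promoter signal (authors' value, log axes) in replicate 1 (x) and replicate 2 (y) for the 92 zinc finger genes with a region in both own lists; the dashed line marks equal values. Points follow the line, 70 of 92 above it, and Zfp781, Zfp993, Zfp991 and Zfp946 lie farthest below.

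Each of the other consensus words searched lay in fewer member windows than CCAAT did. CCAAT is also the shortest of them, with 5 bases against 6 to 9, and a shorter word is met more often by its length alone. The shares are therefore set beside those of all windows, word by word. The SP and KLF word GGGCGG on either strand lay in 41.0% of member windows against 51.8% of all. The E-box CACGTG lay in 14.0% against 8.64%, and 13 of its 14 member windows belonged to open genes. Of all 100 member windows 78 belonged to open genes, and of the 1232 windows of all genes with this word 979 did. Zfp942 and Zfp943 share the E-box between their starts, as do Zfp944 and Zfp758, so the 14 windows are not separate sites. The YY1 core AANATGGCG was in 7% against 3.81%, and the ETS core CCGGAAGT in 4% against 6.04%. The TATA box TATAAA was in 3% against 11.2%, and the GATA word AGATAAG in 6% against 2.46%. The CREB word TGACGTCA, the NRF1 word GCATGCGC, the RUNX word TGTGGTT and the ZNF143 word ACTACAATT lay in 1, 3, 6 and 1 member windows, and the BANP word TCTCGCGA in none. Of all windows 2.64% held the CREB word, 4.14% the NRF1 word, 4.49% the RUNX word, 0.56% the ZNF143 word and 1.72% the BANP word. Words were counted apart even where they share bases with a neighbouring match.

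The genes of the corepressor machinery that KRAB proteins act through were open almost throughout. Of 30 genes 29 had a promoter region (96.7%), where 60.2% of all genes had one. Their promoters were rich in CpG, with a median ratio of 0.83, and of all genes in the highest CpG class 91.2% were open. The median signal was 12.61, against 11.25 for all open genes, and the mean was 5.63 distal regions, against 4.17. Chd3, a remodeller subunit, had no region at its start sites. Ehmt2 was the weakest at 4.11, with no region in replicate 1's own list. Setdb1, the methyltransferase, had 18.87 (17.13 in replicate 1, 17.39 in replicate 2). Mphosph8, of the HUSH complex, had 18.69 (16.70 and 18.52), Morc2a, its ATPase partner, 15.77 (14.32 and 14.64), and Suv39h1, another methyltransferase, 15.52 (13.87 and 16.39). Trim28 itself had 7.66 (7.11 and 8.25), below the median of all open genes.

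Of 4 groups of zinc finger genes compared, Zfp700 to Zfp999 had the highest median signal and the fewest distal regions on average. Of the 237 genes named Zfp1 to Zfp699, 210 were open (88.6%), with a median of 12.92 and 3.74 distal regions on average. Of the 30 Zscan and Zkscan genes, which carry a SCAN domain, 19 were open (63.3%), with a median of 13.79 and 2.93 distal regions. Of the 41 Zbtb genes, which carry a BTB domain, 38 were open (92.7%), with a median of 9.85 and 5.10. Outside clusters 2a, 2b and 4, set apart for their few open genes, the share of Zfp700 to Zfp999 was 89 of 104 (85.6%). Nothing was left out of Zfp1 to Zfp699 in the same way, so its 88.6% is not a like comparison. Symbols follow the order of naming, so these groups are not subfamilies, and no difference between them was tested.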

How the data were processed

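Accessibility was measured by ATAC-seq in 2 libraries of 1 group. The authors deposited narrowPeak lists on mm10, per the labels, whose signal column holds the value of each peak as their caller gave it. The aligner, the peak caller, the treatment of duplicates and of reads with several matches, and any transposase shift were not given in the sources used here. Each could change which regions are listed. Signal tracks were not used, and read depth is unknown.

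Summits with the same interval were merged, a region taking its strongest summit's signal. Promoter regions have a summit within 1 kb of any of 54361 protein-coding start sites (GENCODE M21, 21938 genes on 21 chromosomes). Distal regions have their strongest summit within 50 kb of the 5′ end and no summit in a promoter. Unique words are 50-mers or 100-mers found once in the genome, both strands. 2 pseudogenes matching the name pattern were left out. Motifs used RefSeq windows of GRCm38.p6. KRAB boxes and fingers were matched by pattern in translated GENCODE coding sequences, since the protein table foreseen for this was not used here. An unmatched pattern does not show that the domain is absent. Promoter identity came from global alignment (Biopython 1.88). Counts stand beside those of all genes, and no test was made. A marker of the lists is not reported here.

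Genes, lists and tests were chosen with earlier results of these data known. Uniqueness and 12-base words were added after seeing the data. The naming rule took the 12 strongest and 5 weakest open genes, the first 12 closed in genome order, the 8 with most distal regions, 5 open genes without any, each cluster's strongest, 13 with described roles, and the 5 with the most unequal replicates. Scripts recovered planted regions and repeats in simulated data (Python 3.11.15, pandas 2.3.3). Alternatives were other lists, each replicate alone, other windows and gaps, the stronger 50% of regions, and subsets of genes.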

Additional observations from a re-analysis of the deposited data

How the results depend on the processing

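In each setting run the members' share with a promoter region and their median signal stayed above those of all genes, and their mean number of distal regions stayed below. The share of 73.4% became 72.7% with the IDR-thresholded list, 76.6% with the replicated and the pseudoreplicated list, and 66.4% with the stronger 50% of regions. It was 72.7% with a promoter window of 0.5 kb, 74.2% with 2 kb and 70.3% at 5′ ends only. It was 89.5% for genes with at least 90% unique 50-mers and 87.9% without chromosomes 2 and 4, both added after seeing the data. Leaving out a replicate gave 71.9% to 72.7%, median signals of 12.89 to 13.45 and 1.56 to 1.64 distal regions. The mean of 2.27 distal regions became 2.20 with the IDR-thresholded list, 4.04 with the replicated and 3.84 with the pseudoreplicated list, 0.97 with the stronger regions, 0.83 within 20 kb, 4.57 within 100 kb, 3.26 for mostly unique genes and 2.61 without chromosomes 2 and 4. The difference between clustered genes and others, -8.48 percentage points, reversed to 5.45 with the stronger regions, 12.3 for mostly unique genes and 5.95 without chromosomes 2 and 4. It was -10.8 with a 2 kb window, -13.2 at 5′ ends only and -14.5 with a gap of 1000 kb. The causes were not tested. The difference in the second CpG class was 16.8 points with 250 bases each side of the 5′ end in place of 500. No paired analysis was possible because the series has 1 group. Unknown read depth limits what can be said of weak or absent regions.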
